A study of Mus musculus with 20 samples.

Results

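The genes described here encode the subunits of respiratory chain complexes I to IV and cytochrome c, measured in 7 clonal lines of mouse fibroblasts. A gene was included when a probe set with a single gene symbol named an Nduf subunit of series a, b, c, s or v, one of Sdha to Sdhd, a Uqcr gene, a gene of the Cox4 to Cox8 series, Cyc1 or Cycs. This gave 138 probe sets of 66 genes out of 18193 genes measured, and each gene was represented by its brightest such probe set. Complex I had 33 of the 66 genes, complex II had 4, complex III had 9, complex IV had 19, and cytochrome c had 1. Ndufa4, first described in complex I and now placed in complex IV, was counted with complex IV together with its relative Ndufa4l2. The subunits encoded by mitochondrial DNA carry other symbols and were outside this rule.

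The study asked which genes mark fibroblasts committed to the fat cell lineage before they differentiate. The lines are clones of Swiss 3T3 cells, an immortalized strain from mouse embryo fibroblasts, and each line therefore stands for 1 clone. The preadipose class held Swiss 2, Swiss 8 and Swiss 9 with 3 arrays each and Swiss 19 with 2 arrays, 4 lines in all. The non-adipogenic class held Swiss 3, 5 and 22 with 3 arrays each, 3 lines in all. Cells of both classes were dividing when harvested, in DMEM with bovine serum, and no differentiation agent is given in the labels. The labels do not say that arrays of the same line are separate cultures, and p-values based on arrays measure only the spread between those arrays, which may be technical.

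The respiratory chain moves electrons from NADH through complex I, and from succinate through complex II, to ubiquinone. Complex III passes them on to cytochrome c, a small carrier protein, and complex IV hands them to oxygen, while complexes I, III and IV pump protons out of the matrix. Most subunits are nuclear genes whose promoters are known targets of NRF1, GABP, YY1 and the estrogen-related receptors. Fibroblasts that turn into adipocytes are known to expand their mitochondria during differentiation, a stage that the cells measured here had not entered.

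The 20 arrays differed in overall brightness, with mean intensity between 25.6 and 156.7. By the level of 9 hybridization spikes, 11 arrays were dim (those of the preadipose lines Swiss 2, 8 and 9, with 2 arrays of Swiss 3) and 9 were bright (those of Swiss 19, 5 and 22, with 1 array of Swiss 3), with a gap of 1.62-fold between them. Brightness therefore moved with class, and the part it played in the class differences was not tested beyond the values given within each set of arrays. All 10 fibroblast markers examined, collagens and vimentin among them, were above background in every line, with summed normalized intensity of 21476 to 31108 in preadipose lines and 18958 to 24070 in non-adipogenic lines. Of 9 brown or beige adipocyte markers, 1 was above background in every line and 5, Ucp1 included, in none. Of 6 measured mature adipocyte markers, 2 were above background in every line, and Lep and Cidec in none. Muscle, leukocyte, epithelial and endothelial lists had 2 of 10, 2 of 5, 2 of 4 and 0 of 4 markers above background in every line, and the leukocyte markers summed to 69.1 to 86.1 in preadipose lines and 58.9 to 62.0 in non-adipogenic lines, with Ptprc below background throughout.

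As a group, the respiratory chain genes stood at nearly the same level in the classes after quantile normalization, and single members differed in direction. They were lower in preadipose lines with arrays centred on their medians or not normalized. The median member was also lower within the dim arrays, within the bright arrays and with spike level added to the model. The median class difference of the 66 genes, preadipose minus non-adipogenic on the log2 scale, was -0.0034, against 0.0033 for all 18193 genes. Of the 66, 30 were higher and 36 lower in the preadipose mean. After adjustment over all genes with limma, 1 member, Cox6a1, passed the threshold of 0.05, and it was lower in the preadipose lines. That count stands beside 1.53% of all genes called in either direction and 0.951% called lower, so the members' share of 1.52% was near the background. No member differed by 1 or more on the log2 scale, and 64 of the 66 differed by less than 0.5.

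More members than the adjusted count separated the lines of the classes. In 12 of the 66 genes (18.2%) every preadipose line mean lay below every non-adipogenic one, against 7.53% of all genes. In 4 of the 66 (6.06%) every preadipose line mean lay above, against 6.39% of all genes, and 1 of the 4, Cox7a1, was below background in every line. An unadjusted p below 0.05 was reached by 18 of the 66 genes (27.3%), 6 of them higher and 12 lower in the preadipose lines, against 15.6% of all genes. The genes of a chain complex are not independent of each other, and these shares are descriptions without a test.

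**Figure D1:**
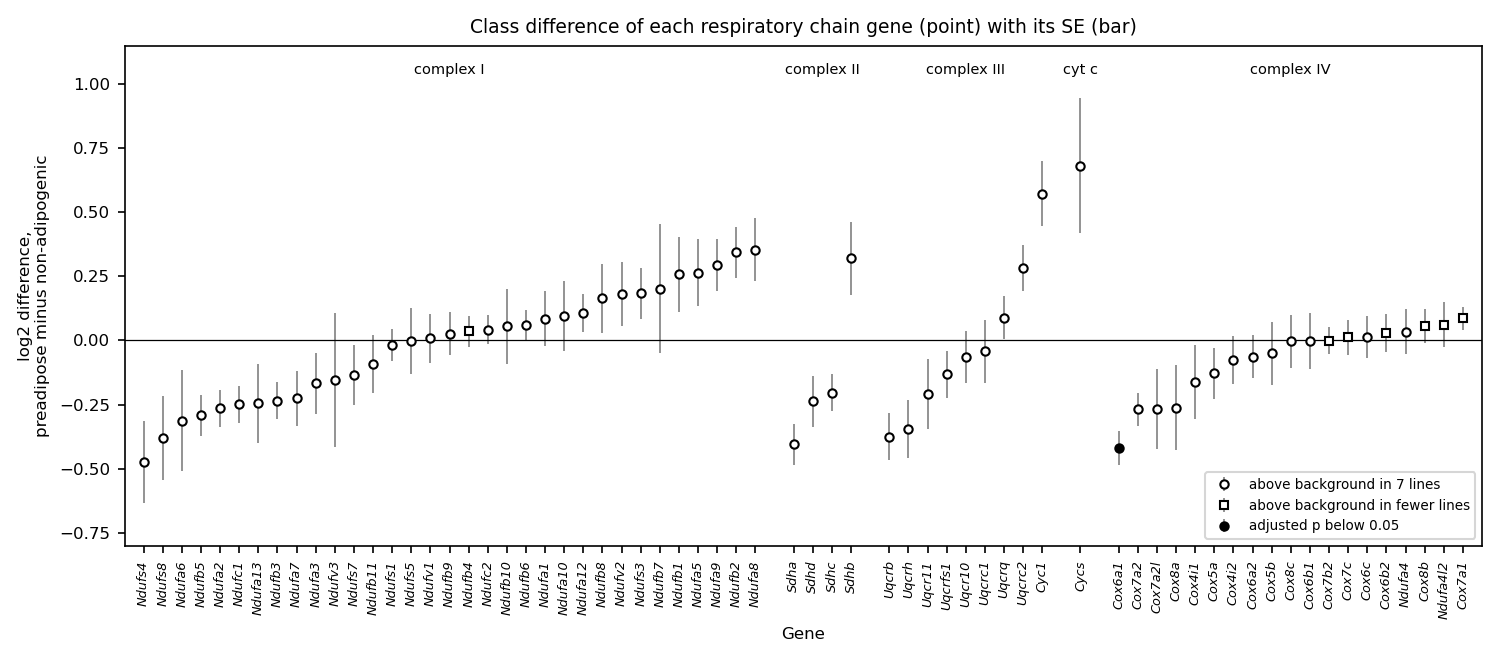
Class difference of the 66 respiratory chain genes, sorted within each complex. Points give the log2 difference, preadipose minus non-adipogenic line means, bars give its standard error from limma, and the filled point is Cox6a1; square points mark genes above background in fewer than 7 lines. Complex I spread on either side of 0, from -0.47 to 0.35, and Cyc1 and Cycs had the highest values, at 0.57 and 0.68; without normalization between arrays Cyc1 and Cycs stood at -0.13 and -0.02.

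Of the 66 genes, 59 were above background in all 7 lines, where background is the 95th percentile of 27 control probe sets for bacterial RNA that was not added. The 3 genes below background in every line were Cox7a1, Cox7b2 and Cox8b. The single-symbol probe sets of Cox7c and Ndufb4 were above background in 1 line each, which describes those probe sets only. Of 36 members with more than 1 probe set above background in every line, 28 had all of these in 1 direction between the classes. In bulk RNA, fewer cells of a kind and less RNA per cell cannot be told apart.

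Complex I, the NADH dehydrogenase, had a median class difference of 0.026, with 18 genes higher and 15 lower in the preadipose lines. Its 6 core subunits, which carry the flavin and the iron-sulfur clusters, had a median of -0.0047, and its 27 accessory subunits had a median of 0.035. No complex I gene was called between the classes.

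Among the core subunits, Ndufs8, which holds a pair of iron-sulfur clusters, had the largest difference without overlap by its brightest probe set. Its normalized intensity was 538.9, 487.7, 432.9 and 309.5 in the preadipose lines Swiss 2, 8, 9 and 19, against 620.6, 566.6 and 539.3 in the non-adipogenic lines Swiss 3, 5 and 22. The highest preadipose line, Swiss 2, nearly reached the lowest non-adipogenic line, Swiss 22. The log2 difference was -0.38 (standard error 0.17, 1.30-fold lower, adjusted p = 0.32). It was -0.31 within the dim arrays and -0.84 within the bright arrays, where Swiss 19 was the only preadipose line. The 6 probe sets of Ndufs8, all above background in every line, were all lower in preadipose lines, by -0.38 to -0.071. The next brightest gave -0.35, but its line means overlapped between the classes, with Swiss 2 above Swiss 22.

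The accessory subunit Ndufb2, of the membrane arm, went the other way. It stood at 446.3, 335.9, 423.1 and 350.5 in the preadipose lines Swiss 2, 8, 9 and 19, and the non-adipogenic lines lay close together at 299.8, 290.5 and 301.5. The groups did not overlap, and the log2 difference was 0.34 (standard error 0.099, 1.31-fold higher, adjusted p = 0.14), but the direction turned to -0.21 with arrays centred on their medians and to -0.33 without normalization. Under these scalings the 250 genes on either side of Ndufb2 in mean level had a median difference of -0.56 and -0.68. Ndufb5, another membrane-arm subunit, stood at 266.2, 261.3, 245.2 and 255.8 in the preadipose lines, against 360.5, 283.4 and 324.8 in the non-adipogenic lines. Its preadipose lines were tight and all lower, with a log2 difference of -0.29 and a standard error of 0.079 (1.26-fold lower, adjusted p = 0.12). The remaining complex I genes without overlap were Ndufa2, Ndufb3 and Ndufc1, all accessory and lower in preadipose lines by 0.24 to 0.27 on the log2 scale, named here after their values were seen to complete the count.

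The largest complex I difference, picked out after its value was seen, was that of Ndufs4, an accessory subunit whose loss causes complex I deficiency in mice. It averaged 286.4 ± 62.6 in preadipose lines and 406.2 ± 54.9 in non-adipogenic lines (SD over 4 and 3 lines), a log2 difference of -0.47 (adjusted p = 0.21). Its line ranges overlapped, since Swiss 2 at 363.9 was above Swiss 22 at 342.95.

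Complex II, succinate dehydrogenase, is the one complex encoded wholly in the nucleus, and it also works in the tricarboxylic acid cycle. Its 4 genes had a median class difference of -0.22, the lowest of the 4 complexes, but they did not share a direction. By their brightest probe sets, Sdha, Sdhc and Sdhd were lower in every preadipose line than in every non-adipogenic line, and Sdhb was higher on average. A second, dimmer probe set of Sdhd, also above background in every line, gave 0.13, the opposite direction. The other probe set of Sdhc was nearly as bright, with a mean of 243.7 against 253.3. It gave -0.17 with a standard error of 0.092, but its line means overlapped between the classes. None of the 4 was called between the classes.

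Sdha, the flavoprotein that oxidizes succinate, was 272.4, 244.6, 211.5 and 225.3 in Swiss 2, 8, 9 and 19, against 327.4, 326.6 and 322.5 in Swiss 3, 5 and 22. The non-adipogenic lines spanned 0.020 on the log2 scale, and all preadipose lines lay below them. The log2 difference of -0.41 with a standard error of 0.080 (1.37-fold lower) had an adjusted p of 0.058, which missed the threshold. It was -0.36 within the dim arrays and -0.50 within the bright arrays, and its next brightest probe set gave -0.27. Without Swiss 2 the difference was -0.46 with an adjusted p of 0.043. That was 1 of 3 calls of Sdha among 19 alternatives.

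The membrane anchors Sdhc and Sdhd, which bind ubiquinone, had differences of -0.20 and -0.24 with standard errors of 0.072 and 0.0997. Sdhc averaged 235.8 ± 14.8 in preadipose lines and 276.8 ± 23.2 in non-adipogenic lines (SD over 4 and 3 lines). Its highest preadipose line, at 249.0, nearly reached its lowest non-adipogenic line, at 252.4. Sdhd averaged 216.7 ± 29.4 in preadipose lines and 259.2 ± 9.73 in non-adipogenic lines. Sdhb, the iron-sulfur subunit that links the flavoprotein to the anchors, stood at 529.9, 496.1, 432.3 and 346.2 in the preadipose lines, against 338.9, 398.3 and 318.7 in the non-adipogenic lines. Swiss 19 lay within the non-adipogenic range, and the other preadipose lines lay above it. The difference was 0.32 with a standard error of 0.14 (adjusted p = 0.33), and -0.23 with arrays centred on their medians.

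Complex III, the cytochrome bc1 complex, had a median class difference of -0.066 over 9 genes. Its genes gave the widest spread of any complex, from -0.38 for Uqcrb to 0.57 for Cyc1. Of the 9, 4 did not overlap between the classes, 2 in each direction, against 6.39% of all genes higher and 7.53% lower. None was called.

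Cyc1 encodes cytochrome c1, the heme protein that hands electrons to cytochrome c. It stood at 754.3, 943.7, 801.2 and 691.6 in Swiss 2, 8, 9 and 19, against 456.5, 612.7 and 508.5 in Swiss 3, 5 and 22. Every preadipose line was above every non-adipogenic line. The log2 difference was 0.57 (standard error 0.13, 1.52-fold higher, adjusted p = 0.076), 0.82 within the dim arrays and 0.38 within the bright arrays, but -0.13 without normalization between arrays. When only genes above background in at least 1 line were tested, the adjusted p was 0.048. Uqcrc2, a core protein related to processing peptidases and named here to complete the count, was also higher without overlap, by 0.28 (adjusted p = 0.19), and it too turned, to -0.23, with arrays centred on their medians.

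Uqcrb, a small subunit at the ubiquinone-binding side, was 2085, 1906, 1747 and 1647 in Swiss 2, 8, 9 and 19, against 2378, 2576 and 2251 in Swiss 3, 5 and 22. The ranges did not overlap, and the difference was -0.38 with a standard error of 0.091 (1.30-fold lower, adjusted p = 0.094). Its second probe set, tested among all probe sets, gave -0.40. Uqcrh, the hinge protein that aids the contact of cytochrome c1 with cytochrome c, averaged 338.9 ± 31.6 in preadipose lines and 442.6 ± 75.9 in non-adipogenic lines (SD over 4 and 3 lines), also without overlap (difference -0.35, adjusted p = 0.19). The other probe set of Uqcrh was nearly as bright, with a mean of 361.9 against 383.4. It gave -0.34 with a standard error of 0.12, but its line means overlapped between the classes. Uqcr11, another small subunit, averaged 250.1 ± 45.1 in preadipose lines and 292.2 ± 38.4 in non-adipogenic lines, with overlap.

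Cycs, the somatic cytochrome c, had the largest class difference of any member after quantile normalization. It was 517.2, 806.2, 818.1 and 694.8 in the preadipose lines Swiss 2, 8, 9 and 19, against 263.5, 586.9 and 488.9 in the non-adipogenic lines Swiss 3, 5 and 22. Swiss 2 lay within the range of the non-adipogenic lines, and Swiss 3 was well below all others. The log2 difference was 0.68 (standard error 0.26, 1.59-fold higher, adjusted p = 0.27), but -0.017 without normalization between arrays. Its other 2 probe sets above background in every line gave 0.83 and 0.62.

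Complex IV, cytochrome c oxidase, held the one called gene. Its 19 genes had a median class difference of -0.0037, with 7 higher and 12 lower in the preadipose lines. The 10 subunits in their general isoform or single form had a median of -0.089, and the 8 tissue-restricted isoforms, most of them near background, had a median of 0.013.

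Cox6a1 is the general isoform of a small nuclear subunit at the interface of the oxidase dimer. Its normalized intensity was 2344, 2381, 2453 and 2733 in the preadipose lines Swiss 2, 8, 9 and 19, against 3368, 3355 and 3230 in the non-adipogenic lines Swiss 3, 5 and 22. No preadipose array reached any non-adipogenic array, since the highest preadipose array read 2741 and the lowest non-adipogenic array 3127. Cox6a1 fell to a mean of 2478 ± 176.0 in preadipose lines, against 3318 ± 76.2 in non-adipogenic lines (SD over 4 and 3 lines), a log2 difference of -0.42 with a standard error of 0.066 (1.34-fold lower, limma adjusted p = 0.032). A second probe set gave -0.43 with a standard error of 0.11, and it was not called in the limma fit over all probe sets (adjusted p = 0.13). The difference was -0.50 within the dim arrays and -0.27 within the bright arrays, neither past the threshold (adjusted p = 0.069 and 0.51). Leaving out any single line other than Swiss 19 raised the adjusted p to between 0.077 and 0.11, and leaving out Swiss 19 gave 0.014.

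Cox7a2, the general isoform of another small subunit, stood at 1491, 1510, 1311 and 1349 in the preadipose lines Swiss 2, 8, 9 and 19, against 1694, 1720 and 1711 in the non-adipogenic lines Swiss 3, 5 and 22. By this brightest probe set, all preadipose lines lay below the non-adipogenic lines, which were nearly identical. The difference was -0.27 with a standard error of 0.065 (1.21-fold lower, adjusted p = 0.094). A dimmer probe set of Cox7a2, also above background in every line, gave -0.20 with a standard error of 0.084. Its line means overlapped between the classes, with Swiss 2 above Swiss 22. The related Cox7a2l, a factor that joins complexes III and IV into supercomplexes, also had a difference of -0.27, but its lines overlapped and its probe sets disagreed, the other 2 giving 0.022 and 0.036.

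The remaining general subunits with tissue isoforms overlapped between the classes. Cox4i1 averaged 1161 ± 187.4 in preadipose lines and 1299 ± 202.6 in non-adipogenic lines, while Cox8a averaged 936.7 ± 175.4 in preadipose lines and 1132 ± 234.5 in non-adipogenic lines (SD over 4 and 3 lines). After quantile normalization Cox6b1 and Ndufa4 had differences of -0.0031 and 0.035, with standard errors of 0.11 and 0.087. They stood at -0.60 and -0.52 with arrays centred on their medians, and at -0.73 and -0.65 without normalization.

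The tissue-restricted isoforms were dim or below background, none of them above 101.5 in any line. Cox7a1 and Cox8b, known from heart, muscle and brown fat, were below background in all 7 lines, as was the testis gene Cox7b2. Cox4i2, known from lung, averaged 13.7 ± 4.51 in preadipose lines and 15.9 ± 3.59 in non-adipogenic lines, while the muscle form Cox6a2 averaged 24.5 ± 4.28 in preadipose lines and 27.2 ± 5.32 in non-adipogenic lines. The testis forms Cox6b2 and Cox8c had differences of 0.028 and -0.0037, and Cox6b2 was above background in 3 of 7 lines. Ndufa4l2, known to respond to low oxygen, was above background in 5 of 7 lines and had a difference of 0.061. None of these genes was called in any of the tests.

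**Figure D2:**
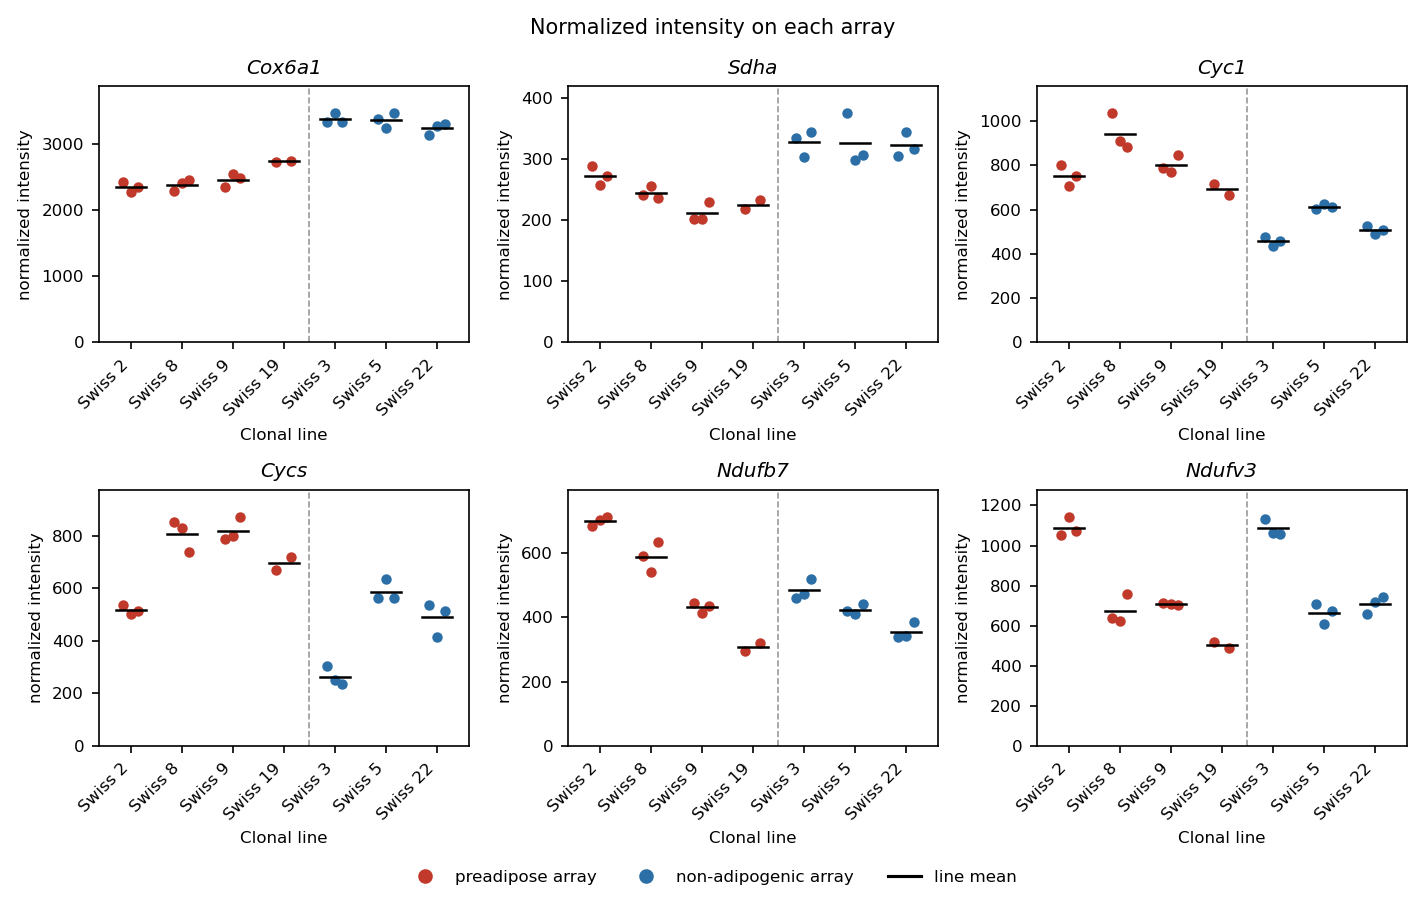
Normalized intensity of 6 genes on every array, with the 4 preadipose lines left of the dashed line and the 3 non-adipogenic lines right of it. Points are arrays and horizontal bars are line means. For Cox6a1, Sdha and Cyc1 the line means do not overlap between the classes, while Ndufb7 and Ndufv3 differ mainly among lines of a class, with Ndufv3 highest in Swiss 2 and Swiss 3.

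Many members differed among the clonal lines of a class, by tests that rest on the spread between arrays of a line. Among the 4 preadipose lines, 39 of the 66 genes (59.1%) were called by limma's moderated F test, against 23.2% of all genes. Among the 3 non-adipogenic lines, 28 of the 66 (42.4%) were called, against 16.4% of all genes. Dim genes are rarely called, so the same counts were taken over genes above background in all 7 lines, 10290 in all and 59 of them members. Beyond that cut, these genes were not matched to the members in level. Of the 10290, 36.7% were called among preadipose lines, against 39 of 59 members (66.1%), and 26.9% among non-adipogenic lines, against 28 of 59 members (47.5%). Both tests called 24 of the 66 members, against 1873 of all 18193 genes. Neither test called 23 of the members, against 12878 of all genes. By complex, the preadipose test called 20 of 33 genes of complex I, 2 of 4 of complex II, 8 of 9 of complex III and 8 of 19 of complex IV, as well as Cycs.

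The differences among lines had a common pattern. Over the 59 genes above background in every line, Swiss 19 had the lowest of the 4 preadipose values in 37 and Swiss 2 the highest in 33. Among the 3 non-adipogenic lines, Swiss 3 had the highest value in 34. Relative to the mean of the 7 lines, the median gene of the preadipose lines Swiss 2, 8, 9 and 19 stood at 0.10, -0.0056, -0.034 and -0.16 on the log2 scale. That of the non-adipogenic lines Swiss 3, 5 and 22 stood at 0.14, 0.0018 and -0.029. The same medians over all 10290 genes above background lay between -0.0077 and 0.0027. Swiss 19 was below the 7-line mean for 51 of the 59 members, among them 27 of 32 in complex I and 12 of 13 in complex IV. Of the 10290 genes, it was below that mean for 5348. Among all 7 lines, Swiss 3 was highest in 40.7% of the 59 members, against 22.1% of the 10290 genes. Swiss 19 was lowest in 39.0%, against 15.4%, and Swiss 2 highest in 18.6%, against 16.1%.

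Swiss 19 was also the only preadipose line read on bright arrays, and the part of brightness in its low values was not tested. Among Swiss 2, Swiss 8 and Swiss 9 alone, all read on dim arrays, the F test called 26 of the 66 members, against 16.4% of all genes. Swiss 3 was read on both kinds of array, and there the 59 members were a median of 0.031 higher on its bright array than on its dim arrays, with a range of -0.32 to 0.48.

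**Figure D3:**
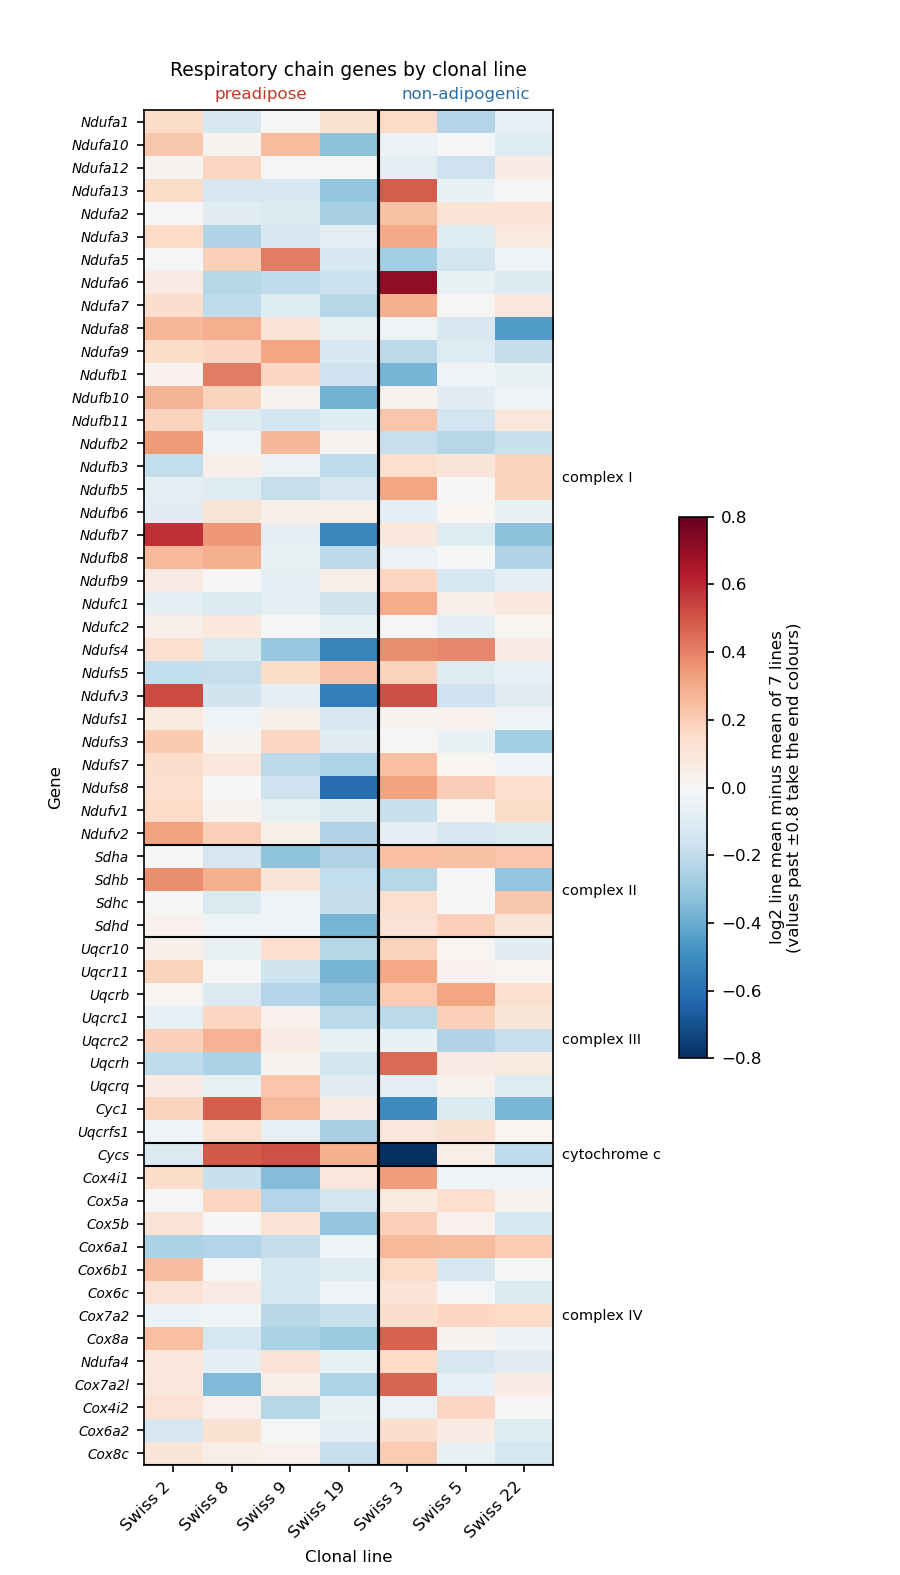
Line means of the 59 respiratory chain genes above background in every line, by complex, with preadipose lines on the left and non-adipogenic lines on the right. Colours give the log2 line mean minus the mean of the 7 lines. Swiss 19 is below the 7-line mean for 51 of the 59 genes and Swiss 3 is above it for 40, against 5348 and 5161 of 10290 genes. Cycs and Cyc1 are low in Swiss 3.

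Ndufb7, an accessory subunit of the complex I membrane arm, had the widest range of any member among preadipose lines. In Swiss 2, 8, 9 and 19 it read 698.6, 588.3, 430.6 and 307.3, a range of 1.11 on the log2 scale (adjusted p = 9.5e-08). In the non-adipogenic lines Swiss 3, 5 and 22 it read 483.3, 423.4 and 355.1, a range of 0.41 (adjusted p = 0.0014). The arrays of each preadipose line stayed apart from those of the next.

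Ndufv3, an accessory subunit of the flavoprotein part of complex I, had a high line in each class. Among preadipose lines it read 1089 in Swiss 2, against 672.1, 708.6 and 503.5 in Swiss 8, Swiss 9 and Swiss 19 (range 1.07, adjusted p = 5.5e-07). Among non-adipogenic lines it read 1086 in Swiss 3, against 665.1 and 706.8 in Swiss 5 and Swiss 22 (range 0.68, adjusted p = 6.8e-06). The class means were 743.3 ± 247.1 in preadipose lines and 819.3 ± 231.9 in non-adipogenic lines (SD over 4 and 3 lines), a difference well inside the spread among lines.

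Cycs had the widest range among non-adipogenic lines, 1.07 on the log2 scale (adjusted p = 8.0e-07), set by its low level in Swiss 3. Cyc1 had ranges of 0.43 among preadipose lines and 0.40 among non-adipogenic lines (adjusted p = 0.0027 and 0.0016), and Swiss 3 was its lowest line too. In the other complexes, the widest called ranges were those of Sdhb (0.57 among preadipose lines, adjusted p = 9.96e-06) and Sdha (0.32 among preadipose lines, adjusted p = 0.038), of Uqcr11 (0.55 among preadipose lines, adjusted p = 6.4e-04), and of Cox8a and Cox7a2l (0.54 among preadipose lines and 0.53 among non-adipogenic lines). In contrast, Cox6a1, the gene that separated the classes, was called in neither F test (adjusted p = 0.077 and 0.80).

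For the median of the 59 members, 21.9% of a gene's sum of squares over the 20 arrays lay between classes, a further 53.9% between clonal lines within a class, and 13.5% among repeat arrays. Over the 10290 genes above background in all 7 lines the medians were 12.4%, 39.9% and 33.5%. The respiratory chain genes had a smaller share of their variation among repeat arrays than those genes did. Those genes were not matched to the members in level, and the part of level in this contrast was not tested.

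The promoters of Cox6a1, the gene called between classes, of Cycs, with the largest class difference, and of Ndufb7, with the widest range among preadipose lines, are given here, from 250 bases before to 50 after the start of transcription (RefSeq, GRCm38.p6). Capitals mark matches to CGCATGCG, a palindromic NRF1 motif, and to CCGGAAG or its reverse complement, a GABP (ETS) motif. Cox6a1 lies at chr5:115348909-115349208, Cycs at chr6:50566520-50566819, both on the minus strand, and Ndufb7 at chr8:83566508-83566807 on the plus strand.
Cox6a1: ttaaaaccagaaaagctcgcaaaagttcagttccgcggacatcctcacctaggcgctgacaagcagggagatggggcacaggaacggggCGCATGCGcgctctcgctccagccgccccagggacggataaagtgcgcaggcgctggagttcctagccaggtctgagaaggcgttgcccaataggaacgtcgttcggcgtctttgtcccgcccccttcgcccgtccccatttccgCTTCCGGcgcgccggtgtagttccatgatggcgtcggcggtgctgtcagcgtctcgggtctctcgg
Cycs: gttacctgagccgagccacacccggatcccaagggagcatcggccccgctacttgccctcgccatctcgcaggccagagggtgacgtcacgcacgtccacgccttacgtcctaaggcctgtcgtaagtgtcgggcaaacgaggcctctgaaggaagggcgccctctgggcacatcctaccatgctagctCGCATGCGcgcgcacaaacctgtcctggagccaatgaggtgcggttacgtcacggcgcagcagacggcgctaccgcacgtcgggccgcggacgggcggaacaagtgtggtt
Ndufb7: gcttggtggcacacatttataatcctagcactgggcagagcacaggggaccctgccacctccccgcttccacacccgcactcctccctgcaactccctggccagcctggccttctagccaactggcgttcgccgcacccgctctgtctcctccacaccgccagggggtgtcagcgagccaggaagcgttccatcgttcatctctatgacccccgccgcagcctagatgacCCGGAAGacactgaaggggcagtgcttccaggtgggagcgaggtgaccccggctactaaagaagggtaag

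The Cox6a1 window held both motifs, Cycs held the NRF1 motif and Ndufb7 the GABP motif. Of the 66 members, 52 had a promoter in the RefSeq table, 54 windows in all. The NRF1 motif occurred in 5 of the 54 windows (9.26%), against 615 of 32851 windows in the table (1.87%). The GABP motif, on either strand, occurred in 11 (20.4%), against 2910 (8.86%). AAGATGGC, a YY1 motif, occurred on either strand in 6 (11.1%), against 903 (2.75%), and TCAAGGTCA, a motif of estrogen-related receptors, in 1, that of Sdhd (1.85%), against 139 (0.423%). No matches of different motifs overlapped in a member's window. A match describes letters in a window and not binding.

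Of the regulators that read these motifs, which lie outside the naming rule, none was called between the classes. Nrf1 averaged 26.96 ± 9.37 in preadipose lines and 21.6 ± 8.70 in non-adipogenic lines (SD over 4 and 3 lines). Gabpa averaged 75.1 ± 15.1 in preadipose lines and 84.9 ± 17.3 in non-adipogenic lines, and Yy1 averaged 150.7 ± 16.9 in preadipose lines and 135.4 ± 17.7 in non-adipogenic lines. The coactivator gene Ppargc1a was dim, at 14.9 ± 2.86 in preadipose lines and 13.8 ± 2.96 in non-adipogenic lines. Over the whole list of 31 regulators of mitochondrial biogenesis 0 were called between the classes. Without overlap, 1 had higher and 2 had lower preadipose line means, against 6.39% and 7.53% of all genes. Those that were lower were Mterf3 (-0.30) and Mterf4 (-0.23), of the mitochondrial transcription termination factor family.

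The neighbouring pathways showed 2 calls, beside 1.53% of all genes called. In the tricarboxylic acid cycle, 1 of 18 measured genes was called, Dlst, a subunit of the oxoglutarate dehydrogenase complex, at 127.4 ± 8.86 in preadipose lines and 89.5 ± 6.31 in non-adipogenic lines (SD over 4 and 3 lines; log2 difference 0.39, adjusted p = 0.036). The list's median was 0.18, and 6 genes were higher and 1 lower without overlap, against 6.39% and 7.53% of all genes. Among 15 uncouplers and other entry points to the chain, Nnt, the proton-driven transhydrogenase, fell to 191.9 ± 20.7 in preadipose lines, against 284.2 ± 6.53 in non-adipogenic lines (log2 difference -0.50, adjusted p = 0.034).

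No gene was called in the other lists. The 18 ATP synthase genes had a median of -0.12, with Atp5a1 at 0.41 and Atp5j2 at -0.41 (adjusted p = 0.075 and 0.059), so that complex V, like complex III, held genes without overlap in either direction. Of 47 assembly factors, Hccs, the enzyme that attaches heme to cytochromes c and c1, averaged 93.1 ± 7.72 in preadipose lines and 56.4 ± 11.8 in non-adipogenic lines (log2 difference 0.51, adjusted p = 0.056). Coa3, an assembly factor of complex IV, had a difference of -0.39 (adjusted p = 0.41). The 76 mitochondrial ribosome genes had a median of 0.027, and 9 were higher and 2 lower without overlap, against 6.39% and 7.53% of all genes. Of these ribosome genes, Mrps6 and Mrpl39 had the largest values, 0.92 and 0.54 (adjusted p = 0.092 and 0.064). Among 7 genes that remove reactive oxygen, Prdx3 stood at 0.25 and Glrx2 at -0.15. The 12 genes of coenzyme Q synthesis had none without overlap and a median of -0.098.

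The zero point of these differences depends on how the arrays are put on a common scale. With arrays centred on their medians, the median member stood at -0.53 and 57 of 66 members were lower in preadipose lines, while all genes had a median of -0.063. Without normalization the median member stood at -0.66 and 65 of 66 were lower, with -0.19 for all genes. To allow for a shift that changes with level, each member was also set against the median of the 250 genes on either side of it in mean level. Relative to that, the median member stood at -0.017 after quantile normalization, -0.020 with median centring and without normalization, and -0.032 when arrays were scaled before the pseudocount was added. On that relative scale the order of the complexes was the same in all 4 scalings, with complex II lowest at -0.21 to -0.23 and Cycs highest at 0.68 to 0.72. Ndufb2, Cyc1, Uqcrc2 and Sdhb, given above as turning direction, were positive on the relative scale in all 4 scalings. They stood at 0.35 to 0.38, 0.57 to 0.60, 0.31 to 0.37 and 0.32 to 0.36.

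**Figure D4:**
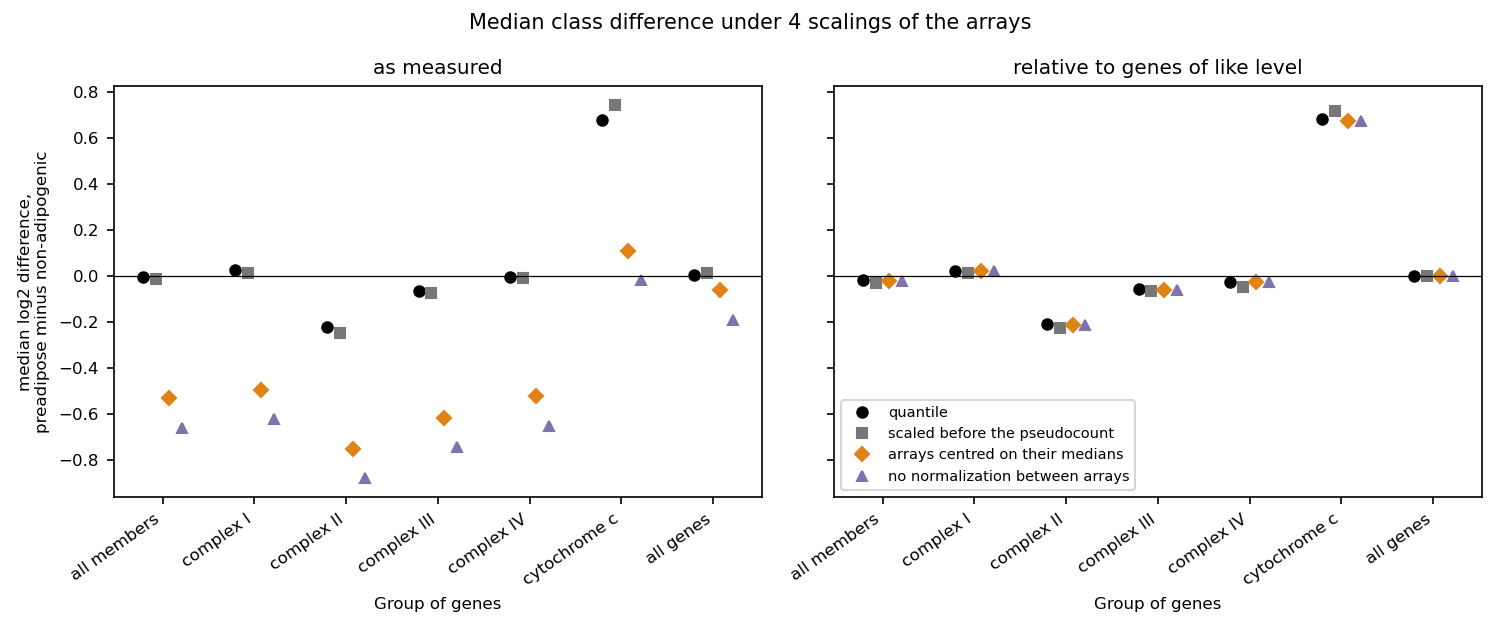
Median class difference, preadipose minus non-adipogenic on the log2 scale, of the respiratory chain genes, each complex and all genes under 4 scalings of the arrays. The left panel gives the values as measured, and the right panel gives them relative to genes of like mean level. As measured, the median member lies between -0.0034 and -0.66 and Cycs turns to -0.017 without normalization; relative to genes of like level the median member lies between -0.017 and -0.032.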

How the data were processed

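RNA of 7 clonal lines was measured on 20 1-colour 3' expression arrays, 1 biotin-labelled sample each. The authors deposited linear intensity values of 45101 probe sets, 64 of them controls; how they were summarized and scaled is not given in the sources used here. Probe sets were named from the platform annotation, and the 66 members' gene identifiers all matched the RefSeq gene table, which changed 0 symbols.

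Values were taken as log2(intensity + 32) and quantile-normalized over non-control probe sets, since the arrays' log2 medians spanned 0.607. A normalized intensity is that value returned to the linear scale with the 32 subtracted. Folds were taken from these intensities, while the pseudocount understates the log2 differences of dim genes. A gene is its brightest probe set with 1 symbol. For differences, overlap and tests, a line mean is the mean of its arrays' log2 values. A printed intensity of a line is the mean of its arrays' normalized intensities. A line was above background when that intensity exceeded the mean over its arrays of the 95th percentile of 27 unspiked bacterial controls. Classes were compared with limma 3.58.1 in R 4.3.3 (lmFit, eBayes) on the 7 line means, and lines of a class with a moderated F test on all 20 arrays, with Benjamini-Hochberg adjustment over 18193 genes at 0.05. Promoter sequences came from RefSeq (GRCm38.p6). The fits were checked on simulated data.

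The members, lists and rules were chosen with earlier results of these data known. Named were members called between classes; in each complex, the 3 largest class differences without overlap and the 2 widest called ranges among lines; the Sdh genes, Cyc1, Cycs and subunits with tissue isoforms; and from each other list up to 4 called genes or, with none called, up to 2 without overlap. Alternatives changed the normalization, pseudocount, filter, probe sets, brightness terms, replicate term and the lines or arrays included. The number of arrays limits the precision. The highest correlation between 2 arrays was 0.992, within a line, and no 2 arrays were identical.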

Additional observations from a re-analysis of the deposited data

Results flagged for a closer look

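Cox7a1 in Swiss 2 stood apart from the other preadipose lines, with a gap to the nearest line of 0.914 of the range of the 4 lines, above the critical value of 0.829. Its normalized intensity was 4.51 in Swiss 2, against 2.95, 2.92 and 3.00 in Swiss 8, Swiss 9 and Swiss 19, and all of these levels are below background. Of 28 named genes tested in this way among the preadipose lines this was the one to pass, and chance alone passes about 1 in 20.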

How the results depend on the processing

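The count of members called between classes, 1 as reported, was 0 with arrays centred on their medians, without normalization, with a pseudocount of 8, with scaling before the pseudocount, and within the dim or the bright arrays (where unadjusted p fell below 0.05 for 3, 0, 15, 5, 14 and 13 members). It was 3 when only genes above background in a line were tested (2.77% of all genes tested), and 18 (7 higher and 11 lower in preadipose lines) with the line as a random block on all arrays, where 2061 of 18193 genes (11.3%) were called; with 1 line left out at a time it ran from 0 to 2. Cox6a1 kept its direction in all 19 alternatives, with differences from -1.12 to -0.27, and its call in 6 of them; among others, it was lost without Swiss 2, Swiss 8, Swiss 9, Swiss 3, Swiss 5 or Swiss 22, and with spike level added to the model (adjusted p = 0.0998). The median class difference was -0.53 with median centring, -0.66 without normalization, -0.092 within the dim arrays, -0.15 within the bright arrays and -0.12 with the spike covariate, against a spread between lines of 0.082 (SD); with 1 line left out it ran from -0.037 to 0.020. Ndufb2 turned to -0.21 with median centring and -0.33 without normalization, and Cyc1 to -0.13 without normalization. The preadipose F test called 60 members with median centring and 61 without normalization, against 68.7% and 70.0% of all genes, and from 27 to 40 with 1 array left out. The non-adipogenic F test called 59 under each of those scalings (59.1% and 63.4% of all genes), 18 with a pseudocount of 8 (13.3%), 13 with scaling before the pseudocount (12.3%), 16 with the brightness part as a block (8.51%), 15 within the bright arrays (12.5%), and from 22 to 30 with 1 array left out. The cause of these changes was not tested. The replicate numbers did not pair the arrays (0 of 57 same-numbered pairs of different lines correlated above 0.1, and 5 of 20 arrays correlated best with their own number); with the replicate block the counts were 1 between classes, 36 among preadipose and 27 among non-adipogenic lines, and the median was -0.0080. Within the dim arrays Swiss 3 was the lone non-adipogenic line and within the bright arrays Swiss 19 the lone preadipose line, each assumed to vary like the other class. Levels near background, as for Cox7a1, Cox7b2, Cox8b, Cox7c and Ndufb4, set no direction.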
